A study of Mus musculus with 21 samples.

Results

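The 3 GADD45 genes (Gadd45a, Gadd45b and Gadd45g) and 7 p53 target genes (Cdkn1a, Mdm2, Ccng1, Phlda3, Bax, Sesn1 and Sesn2) were followed across every library of sorted mouse inflammatory monocytes (IMs). The genes were chosen by symbol, and all 10 were found among the 23420 gene symbols of the count table. RNA-seq covered 21 libraries from mice of 2 strains, which the study's methods call adult and for which the labels give no age. Tumor-associated IMs (TIMs) came from 2 models of lung squamous cancer. In the first, FVB mice received 500000 KAL-LN2-E1 (LN2E1) cells orthotopically in the lung, and TIMs were sorted from primary tumors (n = 5) and from lymph node metastases (n = 5). In the second, DBA2 mice received 300000 LN4K1 cells intravenously, and TIMs were sorted from the resulting lung tumors, which serve as experimental metastases (n = 5). Baselines were bone marrow IMs (BM IMs) of healthy, naïve FVB mice (n = 3) and healthy, naïve DBA2 mice (n = 3). LN2E1 was derived from the KAL squamous line by passage in mice and LN4K1 from the KLN-205 line, so each model stands for 1 cell line. Strain, cell line and route of injection change together between the models and cannot be told apart, and each TIM group differs from its baseline in tissue as well as in tumor. The sort kept live CD45+ SiglecF- CD11b+ Ly6G- cells with high Ly6C.

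p53 is a transcription factor that is stabilized by DNA damage and other stress and then raises genes that stop the cell cycle (Cdkn1a), restrain p53 itself (Mdm2), slow growth signaling (Sesn1, Sesn2, Phlda3) or promote cell death (Bax). The GADD45 proteins are small, acidic stress sensors that bind PCNA, cyclin-dependent kinase 1 and the kinase MAP3K4, through which they act on p38 and JNK signaling. Gadd45a is the classical p53-responsive member, whereas Gadd45b was found as a myeloid differentiation response gene and answers to NF-kB and TGF-beta, and Gadd45g answers to cytokines. RNA levels alone do not measure p53 protein.

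In GRCm38, with GENCODE genes, the GADD45 genes lie apart, with Gadd45a at chr6:67035096-67037457 (-), Gadd45b at chr10:80930073-80932204 (+) and Gadd45g at chr13:51846678-51848468 (+). Cdkn1a lies at chr17:29090976-29100727 (+), Mdm2 at chr10:117688875-117710758 (-), Ccng1 at chr11:40748552-40755311 (-) and Phlda3 at chr1:135766119-135769136 (+). Bax lies at chr7:45461697-45466898 (-), Sesn1 at chr10:41809935-41908424 (+) and Sesn2 at chr4:132492032-132510501 (-).

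The promoters of the 3 GADD45 genes are shown because 2 of them, Gadd45b and Gadd45g, had large RNA differences in every TIM group while Gadd45a had smaller ones. Each sequence is from RefSeq (GRCm38.p6) and runs 5′ to 3′ on the gene's own strand. It covers the 250 bases before the transcription start in RefSeq. GENCODE places the 5′ ends of Gadd45a and Gadd45b further upstream, so the last bases of these windows lie inside the GENCODE genes. Capitals mark a CCAAT box, an E-box with the letters CACGTG, or a TATA box with the letters TATAAA, each on either strand.
Gadd45a, chr6:67037408-67037657 (-): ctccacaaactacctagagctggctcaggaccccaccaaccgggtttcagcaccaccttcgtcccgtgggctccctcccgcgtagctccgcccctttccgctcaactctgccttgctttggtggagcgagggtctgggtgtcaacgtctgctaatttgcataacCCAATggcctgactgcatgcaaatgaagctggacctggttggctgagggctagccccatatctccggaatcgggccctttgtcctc
Gadd45b, chr10:80929841-80930090 (+): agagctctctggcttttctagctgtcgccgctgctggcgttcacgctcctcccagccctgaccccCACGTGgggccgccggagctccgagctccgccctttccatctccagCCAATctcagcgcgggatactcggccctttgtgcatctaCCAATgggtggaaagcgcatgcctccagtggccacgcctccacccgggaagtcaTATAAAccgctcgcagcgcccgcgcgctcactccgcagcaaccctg
Gadd45g, chr13:51846425-51846674 (+): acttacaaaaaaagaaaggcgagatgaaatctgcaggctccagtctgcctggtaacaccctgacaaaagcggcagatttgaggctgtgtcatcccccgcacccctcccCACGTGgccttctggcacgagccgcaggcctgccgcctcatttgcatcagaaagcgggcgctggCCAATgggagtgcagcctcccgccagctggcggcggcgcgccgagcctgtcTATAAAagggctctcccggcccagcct
Gadd45b and Gadd45g each held CACGTG and TATAAA, and Gadd45a held neither.

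Each motif was searched on both strands over 300 bases (250 before the start and 50 after) in 12 promoters of the 10 genes and in all 32544 promoters of the table. CACGTG was found in 3 of the 12 (Bax, Gadd45b and Gadd45g) and in 7.17% of all promoters. TATAAA was found in 2 of the 12 (Gadd45b and Gadd45g) and in 13.6% of all, and CCAAT in 8 of the 12 and in 37.4% of all. The p53 decamer was found in 6 of the 12, those of Bax, Ccng1, Cdkn1a, Gadd45a, Mdm2 and Sesn1, and in 8.36% of all promoters. A full p53 site, taken as a pair of adjacent decamers with at most 1 mismatch outside the core bases, was found in 1 of the 12 (Cdkn1a) and in 0.0553% of all. It overlaps the decamer motif, so a full site is counted under both. Cdkn1a held another decamer, GGACTAGCTT, at bases -73 to -64 from its start. The start meant is the one close to the 5′ end of the GENCODE gene, and this decamer lies before the window shown here. A gene can have more than 1 start among these promoters, as Sesn1 does. The kappaB decamer (4.53% of all promoters) and the AP-1 letters TGANTCA (7.79%) were found in 0 of the 12, which says only that these letters are not in these windows. The windows that hold p53 letters are shown because p53 recognizes these sequences in DNA, with the matched bases in capitals and 30 bases each (GRCm38.p6, gene strand).
Cdkn1a, full site, chr17:29090923-29090952 (+): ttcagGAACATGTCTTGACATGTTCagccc
Gadd45a, decamer, chr6:67037428-67037457 (-): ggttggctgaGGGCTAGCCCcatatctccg
Mdm2, decamer, chr10:117710925-117710954 (-): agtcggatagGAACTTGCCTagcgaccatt
Ccng1, decamer, chr11:40755452-40755481 (-): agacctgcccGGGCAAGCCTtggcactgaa
Bax, decamer, chr7:45467080-45467109 (-): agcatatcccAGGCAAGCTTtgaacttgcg
Sesn1, decamer, chr10:41887256-41887285 (+): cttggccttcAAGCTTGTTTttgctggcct
A match is a description of the letters and not a measured binding site. The Gadd45a and Sesn1 windows with p53 letters lie inside the GENCODE genes given above, not before them.

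Libraries held 80772922 to 101043568 counts, and 11047 to 14512 genes reached 10 counts in a library. Lymph node TIM replicate 1 had the fewest such genes, and LN4K1 lung TIM replicate 3 stood apart from its group, so results that rest on either are also given without it. All 9 monocyte markers were present in every group, with summed levels of 39700 to 127000 CPM, which are counts scaled to the normalized size of each library. Markers of other cells moved with the groups. The 8 dendritic cell markers summed to 192 to 250 CPM in BM IMs and 1060 to 5260 in TIMs, and 9 macrophage markers to 1400 to 2590 and 3090 to 6410. The 6 eosinophil markers summed to 472 to 1260 CPM in BM IMs and 18.5 to 86.9 in TIMs, and the 6 T cell markers in the table to 0.697 to 2.68 and 4.16 to 59.2. Endothelial markers summed to 6.11 to 13.7 CPM in BM IMs, 59.1 to 128 in TIMs of the LN2E1 model and 6.29 to 19.1 in LN4K1 lung TIMs. Pecam1 made up most of the endothelial sum in LN2E1 TIMs (means of 49.0 CPM in primary tumor and 75.4 in lymph node). There 3 and 2 of the 6 endothelial markers were under 1 CPM. H2-Ab1, of the dendritic cell list, had means of 2790, 4240 and 1340 CPM in primary tumor, lymph node and lung TIMs. Apoe, of the macrophage list, had 2390, 2410 and 4510 CPM there. A sum carried mostly by 1 gene does not show that the cell type itself was present. The B cell, NK cell and red blood cell sums were at most 41.0, 28.8 and 9.05 CPM in any library and overlapped between BM IMs and TIMs. The summed level of 12 neutrophil markers was 5630 to 7070 CPM in FVB BM IMs, 3450 to 4320 in DBA2 BM IMs and 654 to 2460 in TIMs. That of 7 fibroblast markers was 378 to 1130 CPM in primary tumor TIMs, 12.2 to 108 in lymph node TIMs, 1.81 to 43.1 in LN4K1 lung TIMs and at most 9.16 in BM IMs, where Lum was at 0 in every library. That of 6 lung epithelium markers was 137 to 880 CPM in primary tumor TIMs, 7.32 to 103 in LN4K1 lung TIMs and at most 2.60 elsewhere, with Nkx2-1 at 0 in both BM groups and in lymph node TIMs. The 7 squamous epithelium markers summed to at most 8.70 CPM in any library, with Dsg3 at 0 in every group. DNA replication genes, described further on, also moved with the groups. The part of these other cells in the results on GADD45 and p53 target genes was not tested.

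Gadd45b, which encodes a myeloid stress and differentiation sensor, was at 12.97, 9.05 and 7.49 CPM in the FVB BM IM libraries and at 8.78, 10.1 and 12.8 CPM in the DBA2 BM IM libraries. It was at 70.9, 67.6, 94.3, 66.3 and 74.1 CPM in primary tumor TIMs. It was at 110.0, 95.0, 93.2, 97.3 and 118 CPM in lymph node TIMs and at 67.2, 60.6, 81.1, 61.2 and 86.8 CPM in LN4K1 lung TIMs. Every TIM library was therefore above every BM IM library. By the quasi-likelihood test of edgeR, adjusted by Benjamini-Hochberg across all genes, Gadd45b was 7.51-fold higher in primary tumor TIMs than in FVB BM IMs (log2 fold change 2.91 ± 0.21 SE, adjusted p = 2.86e-06). It was 10.5-fold higher in lymph node TIMs (3.39 ± 0.21, adjusted p = 2.5e-06), and in the LN4K1 model it was 6.39-fold higher in TIMs (2.68 ± 0.19, adjusted p = 1.3e-05). Gadd45b was among the genes that the study selected on these same libraries, so its direction is not independent evidence. In bulk samples of sorted cells, fewer cells of a type and less RNA per cell cannot be told apart.

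Gadd45g, the cytokine-responsive family member, was at 34.2, 24.8 and 22.0 CPM in FVB BM IMs and at 32.1, 27.4 and 27.9 CPM in DBA2 BM IMs. It was at 138, 130.0, 138, 120 and 119 CPM in primary tumor TIMs. It was at 177, 196, 95.6, 177 and 181 CPM in lymph node TIMs and at 180, 209, 181, 171 and 286 CPM in LN4K1 lung TIMs. TIM and BM IM libraries were fully separate, although lymph node replicate 3 and lung replicate 5 lay away from their groups. The gene rose by 2.24 ± 0.15 on the log2 scale in primary tumor TIMs (adjusted p = 2.03e-06), by 2.62 ± 0.26 in lymph node TIMs (adjusted p = 4.52e-05) and by 2.74 ± 0.20 in LN4K1 lung TIMs (adjusted p = 1.26e-05).

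Gadd45a, the member most closely tied to p53, was at 34.5, 29.1 and 27.5 CPM in FVB BM IMs and at 23.5, 24.3 and 29.5 CPM in DBA2 BM IMs. It was at 32.9, 35.4, 40.9, 38.5 and 39.3 CPM in primary tumor TIMs, which overlapped the FVB BM IM libraries. It was at 50.3, 59.4, 44.9, 51.8 and 65.6 CPM in lymph node TIMs, all above the FVB BM IM libraries. In LN4K1 lung TIMs it was at 42.9, 44.3, 85.5, 33.6 and 58.5 CPM, all above the DBA2 BM IM libraries but spread over a wide range. The log2 fold change was 0.28 ± 0.11 in primary tumor TIMs (adjusted p = 0.0544), which missed the threshold of 0.05. It passed in 6 of 15 alternative settings, among them DESeq2's size factors (0.34, adjusted p = 0.0306) and leaving out FVB BM IM replicate 1 (0.41, adjusted p = 0.0231) or primary tumor replicate 1 (0.33, adjusted p = 0.0341). Gadd45a rose in lymph node TIMs (0.84 ± 0.17, adjusted p = 0.00303) and in LN4K1 lung TIMs (0.96 ± 0.28, adjusted p = 0.035). Without lung replicate 3, the highest library, the lung value was 0.72 (adjusted p = 0.0111), and the call was lost when any single library of the DBA2 baseline, or lung replicate 5, was left out (adjusted p from 0.0711 to 0.122). Exons of Gadd45a overlap E230016M11Rik on the opposite strand, and the libraries did not mark strand, so reads of the 2 genes could not be told apart there.

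**Figure D1:**
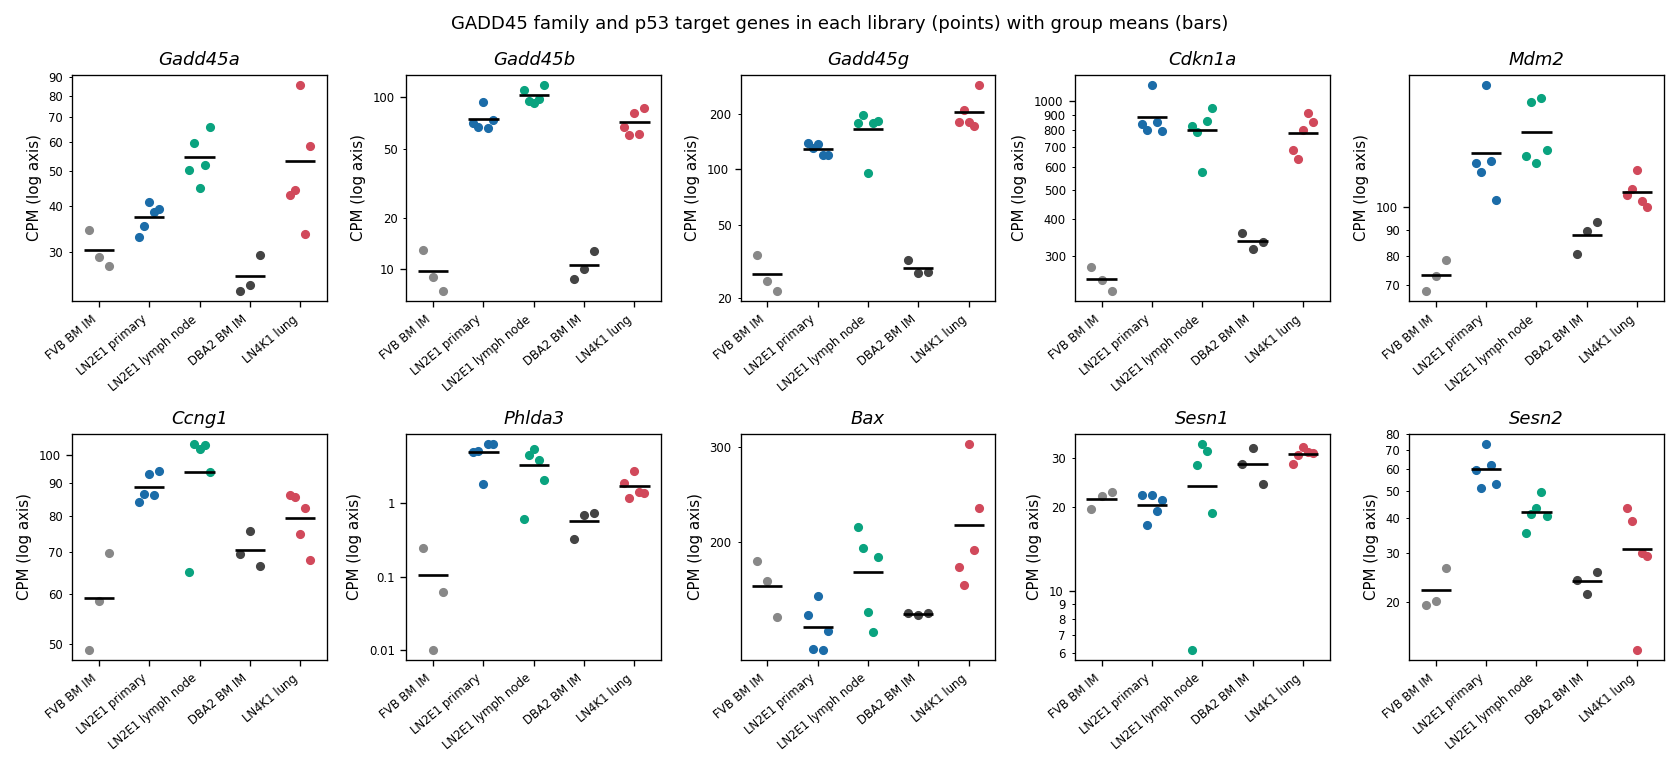
CPM (log axis, scale differs by panel) of each of the 10 genes in the 21 libraries, with a point for each library and a bar for the group mean. Gadd45b, Gadd45g and Cdkn1a lay higher in every TIM library than in every BM IM library, and Phlda3 was near 0 in FVB BM IMs. Sesn1 ranges overlapped between each TIM group and its own baseline, with lymph node replicate 1 lowest at 6.19 CPM. For Sesn1, all DBA2 BM IM libraries lay above all FVB BM IM libraries, and all lung TIM libraries above all primary tumor TIM libraries.

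Cdkn1a encodes p21, the cyclin-dependent kinase inhibitor through which p53 stops the cell cycle. It was at 276, 249 and 229 CPM in FVB BM IMs and at 359, 317 and 335 CPM in DBA2 BM IMs, so that all DBA2 libraries were above all FVB libraries. It was at 839, 802, 1136, 849 and 796 CPM in primary tumor TIMs, and at 825, 788, 579, 862 and 952 CPM in lymph node TIMs. It was at 687, 640, 801, 915 and 855 CPM in LN4K1 lung TIMs. All 15 TIM libraries were above all 6 BM IM libraries. Cdkn1a rose 3.48-fold in primary tumor TIMs (log2 fold change 1.80 ± 0.14, adjusted p = 5.91e-06), 3.19-fold in lymph node TIMs (1.67 ± 0.16, adjusted p = 3.99e-05) and 2.19-fold in LN4K1 lung TIMs (1.13 ± 0.14, adjusted p = 0.00035). Exons of Cdkn1a overlap AC167363.2 on the opposite strand, with the same limit as for Gadd45a.

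Mdm2 encodes the ubiquitin ligase that degrades p53 and is itself a p53 target. It was at 68.3, 73.2 and 78.5 CPM in FVB BM IMs. It was at 122, 117, 173, 123 and 103 CPM in primary tumor TIMs and at 126, 161, 122, 163 and 129 CPM in lymph node TIMs, with no overlap. In the other model it was at 80.9, 89.7 and 93.4 CPM in DBA2 BM IMs and at 106, 109, 118, 103 and 99.9 CPM in LN4K1 lung TIMs, again without overlap but with a small gap. Mdm2 rose by 0.78 ± 0.17 on the log2 scale in primary tumor TIMs (adjusted p = 0.00261) and by 0.94 ± 0.15 in lymph node TIMs (adjusted p = 0.000746). The value in LN4K1 lung TIMs was 0.20 ± 0.11 (adjusted p = 0.214).

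Ccng1 encodes cyclin G1, a p53 target that helps a phosphatase act on the Mdm2 protein. It was at 49.0, 58.6 and 69.9 CPM in FVB BM IMs and at 84.1, 86.5, 93.2, 86.3 and 94.3 CPM in primary tumor TIMs. In lymph node TIMs it was at 65.0, 104, 102, 104 and 93.8 CPM, where replicate 1 fell inside the range of the baseline. The gene rose by 0.56 ± 0.12 in primary tumor TIMs (log2 scale, adjusted p = 0.00329) and by 0.66 ± 0.19 in lymph node TIMs (adjusted p = 0.0215, and 0.00235 without lymph node replicate 1). The lymph node call was lost without FVB BM IM replicate 1 or 2 or without lymph node replicate 3 (adjusted p from 0.05 to 0.104). The 3 DBA2 BM IM libraries were at 69.5, 75.7 and 66.5 CPM, and the 5 LN4K1 lung TIM libraries were at 86.4, 85.6, 74.9, 82.2 and 68.1 CPM. These ranges overlapped, with a log2 fold change of 0.10 ± 0.13 (adjusted p = 0.637).

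Phlda3, a small protein with a pleckstrin homology domain that restrains Akt and is raised by p53, had the lowest counts of the 10 genes and, in the LN2E1 model, the largest fitted differences. It had 22, 1 and 7 counts in the FVB BM IM libraries and 32, 69 and 70 counts in the DBA2 BM IM libraries. It had 468, 459, 157, 586 and 551 counts in primary tumor TIMs (1.83 to 6.47 CPM) and 50, 345, 466, 314 and 177 counts in lymph node TIMs (0.606 to 5.54 CPM). LN4K1 lung TIMs had 162, 112, 205, 138 and 126 counts (1.18 to 2.77 CPM). TIM and BM IM libraries of the same model did not overlap. The log2 fold change was 5.53 ± 0.84 in primary tumor TIMs (adjusted p = 0.000373) and 4.95 ± 1.23 in lymph node TIMs (adjusted p = 0.0104). In LN4K1 lung TIMs it was 1.49 ± 0.51 (adjusted p = 0.0595), and DESeq2 gave 1.50 there with an adjusted p of 0.00491. Without lung replicate 3, the highest of the lung libraries, edgeR gave 1.25 (adjusted p = 0.0572). In the comparisons with FVB BM IMs Phlda3 passed the filter on low counts through the TIM libraries, where it is high. The fibroblast marker sum, in replicate order, was 554, 1070, 378, 1130 and 715 CPM in primary tumor TIMs, lowest in replicate 3, as Phlda3 was. In lymph node TIMs the sum was 12.2, 108, 46.1, 89.1 and 23.8 CPM, lowest in replicate 1, as Phlda3 was. The highest sum there was in replicate 2 and the highest Phlda3 level in replicate 3. In LN4K1 lung TIMs the sum was 7.83, 2.90, 1.81, 20.6 and 43.1 CPM, lowest in replicate 3, where Phlda3 was highest. The part of fibroblast RNA in the Phlda3 level was not tested.

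Bax encodes the pore-forming protein of the mitochondrial death pathway. It was at 184, 169 and 145 CPM in FVB BM IMs and at 146, 126, 158, 126 and 136 CPM in primary tumor TIMs, with overlapping ranges. It was at 213, 195, 148, 136 and 188 CPM in lymph node TIMs, on both sides of the baseline. In the other model it was at 147, 146 and 147 CPM in DBA2 BM IMs and at 179, 166, 305, 193 and 231 CPM in LN4K1 lung TIMs, without overlap. The log2 fold change in primary tumor TIMs was -0.28 ± 0.11 (adjusted p = 0.0481), a call that held in 2 of 15 alternative settings. It missed the threshold under DESeq2's size factors (-0.22, adjusted p = 0.0991) and without any 1 of FVB BM IM replicates 1 and 2 and primary tumor replicates 1, 2, 4 and 5 (adjusted p from 0.0584 to 0.257). It was 0.09 ± 0.17 in lymph node TIMs (adjusted p = 0.728) and 0.47 ± 0.19 in LN4K1 lung TIMs (adjusted p = 0.106). Without lung replicate 3, the highest library, the lung value was 0.31 with an adjusted p of 0.0464. Exons of Bax overlap those of Gm45808 on the same strand, so its count is uncertain to the extent that reads were shared.

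The sestrins hold back mTORC1, the growth-signaling kinase complex, by binding GATOR2. Sesn2, which answers to amino acid stress as well as p53, was at 19.6, 20.1 and 26.6 CPM in FVB BM IMs. It was at 59.7, 51.3, 73.8, 62.0 and 53.2 CPM in primary tumor TIMs and at 35.3, 41.4, 43.6, 49.5 and 40.7 CPM in lymph node TIMs, so the 3 FVB groups did not overlap. Sesn2 rose by 1.42 ± 0.17 on the log2 scale in primary tumor TIMs (adjusted p = 6.99e-05) and by 0.93 ± 0.18 in lymph node TIMs (adjusted p = 0.00279). In DBA2 mice it was at 24.1, 21.4 and 25.8 CPM in BM IMs and at 43.6, 39.1, 13.5, 30.1 and 29.4 CPM in LN4K1 lung TIMs, where replicate 3 was below every baseline library and the other 4 were above. The log2 fold change was 0.32 ± 0.32 (adjusted p = 0.526) with all 5 lung libraries and 0.51 (adjusted p = 0.0388) without replicate 3.

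Sesn1 was at 19.7, 22.0 and 22.7 CPM in FVB BM IMs and at 22.1, 17.3, 22.2, 19.5 and 21.3 CPM in primary tumor TIMs. Lymph node TIMs were at 6.19, 28.3, 33.8, 31.8 and 19.1 CPM, with replicate 1 well below the rest. DBA2 BM IMs were at 28.5, 32.6 and 24.3 CPM and LN4K1 lung TIMs at 28.6, 30.8, 32.9, 31.7 and 31.3 CPM. The ranges overlapped in each comparison of TIMs with their own baseline. Every DBA2 BM IM library was above every FVB BM IM library, and every LN4K1 lung TIM library above every primary tumor TIM library. The log2 fold changes were -0.09 ± 0.12 in primary tumor TIMs (adjusted p = 0.552), 0.15 ± 0.44 in lymph node TIMs (adjusted p = 0.827, and 0.40 with an adjusted p of 0.165 without replicate 1) and 0.05 ± 0.13 in LN4K1 lung TIMs (adjusted p = 0.835).

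**Figure D2:**
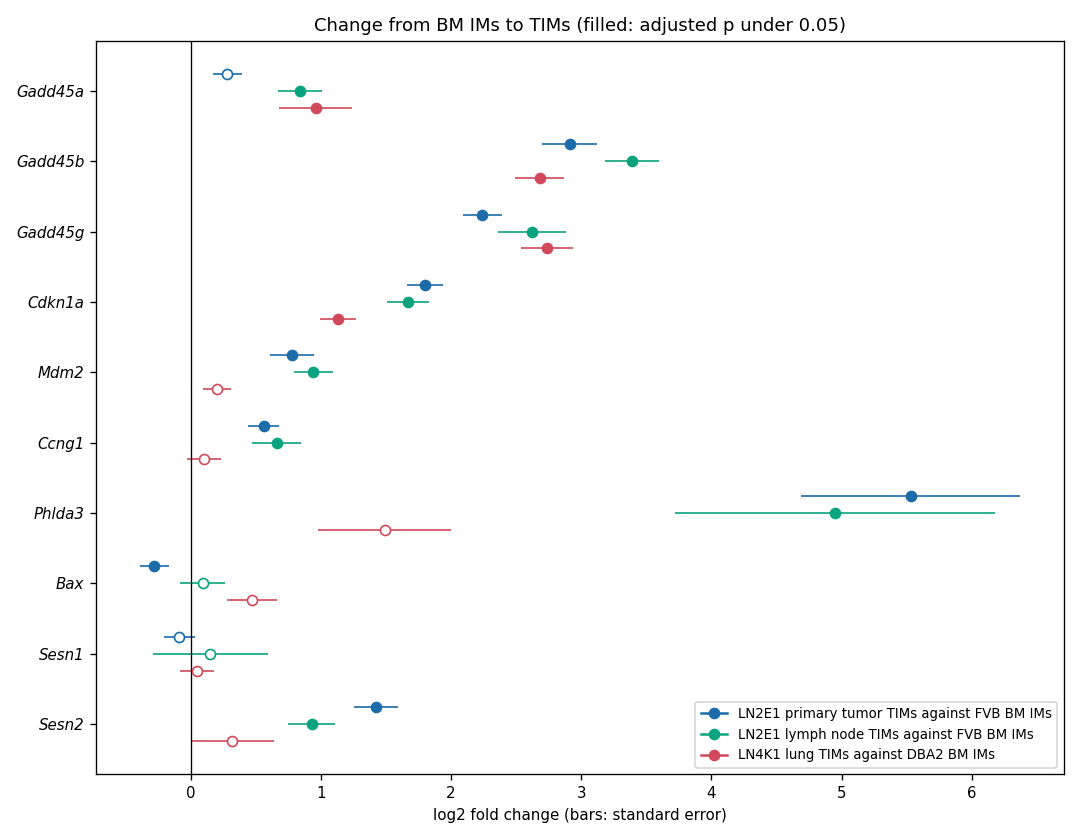
Log2 fold change (x axis) of each of the 10 genes from BM IMs to TIMs in the 3 comparisons, with standard errors as bars and filled points where the adjusted p was under 0.05. Gadd45b and Gadd45g lay between 2.24 and 3.39 in all 3, Cdkn1a between 1.13 and 1.80, and Sesn1 near 0, while Phlda3 had the widest standard errors.

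Counted together, 7 of the 10 genes were higher and 1 was lower in primary tumor TIMs than in FVB BM IMs, where 33.3% of all 14569 genes tested were called higher and 28.6% lower. In lymph node TIMs 8 of 10 were higher and 0 lower by edgeR (20.2% of all genes higher, 17.2% lower). In LN4K1 lung TIMs 4 of 10 were higher and 0 lower (13.9% higher, 11.0% lower). Without lung replicate 3, 6 of 10 were higher, and the genes called higher over all genes also grew, from 1892 of 13624 to 2744 of 13592. Phlda3, which passed the filter in the comparisons with FVB BM IMs through the TIM libraries, was among those higher there, and without it 6 of 9 genes were higher in primary tumor and 7 of 9 in lymph node TIMs. DESeq2 also called 0 lower in lymph node and lung TIMs, and at an unadjusted p under 0.05 edgeR had 0 lower there as well, since all 10 fold changes were above 0 in both comparisons. Gadd45b, Gadd45g and Cdkn1a were called higher in all 3 comparisons, as were 7.94% of the 12782 genes tested in all of them. The comparisons in FVB mice share the same 3 BM IM libraries. Of the 10 genes, 7 were higher without overlap of libraries in each of the 3 comparisons, against 30.7%, 20.1% and 19.9% of all genes, and 6 of 9 in each without Phlda3. The median log2 fold change of the 10 was 1.10, 0.93 and 0.71 in primary tumor, lymph node and lung TIMs, against 0.08, -0.04 and 0.03 over all genes tested, and it was 0.78, 0.93 and 0.47 without Phlda3. By the stricter rule of the study for a differentially expressed gene (adjusted p under 0.0001 and absolute log2 fold change above 1), Gadd45b, Gadd45g, Cdkn1a and Sesn2 passed in primary tumor TIMs, all as higher, where 7.72% of all genes passed as higher. Gadd45b, Gadd45g and Cdkn1a passed in lymph node TIMs (4.01% of all genes higher), and Gadd45b and Gadd45g in LN4K1 lung TIMs (1.21% higher). These counts of 4, 3 and 2 genes are from edgeR, whereas the study applied its rule to shrunken DESeq2 values. With shrunken DESeq2 values 5, 4 and 3 of the 10 passed, all as higher. Over all genes 2804 of 15954, 1576 of 14062 and 887 of 14668 then passed as higher. The edgeR counts moved with single libraries. Leaving out 1 library gave 3 to 4 genes in primary tumor TIMs (3 without FVB BM IM replicate 1), 1 to 3 in lymph node TIMs (1 without any of the 3 FVB BM IM replicates or lymph node replicate 2, 4 or 5) and 0 to 2 in lung TIMs (0 without DBA2 BM IM replicate 1 or 2, 1 without replicate 3). Over all genes the number that passed moved as well, from 938 to 2031, 307 to 977 and 115 to 840 in the same order. With the replicate block 0 of the 10 passed this rule in any of the 3, where 0 of all genes tested passed it.

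Per kilobase of annotated exon, the levels could be ordered between genes. In FVB BM IMs Bax (105 ± 12.6 CPM per kilobase, SD, n = 3) and Cdkn1a (70.7 ± 6.74) were the most abundant of the 10, and Phlda3 the least (0.0690 ± 0.0809). Within the GADD45 family the order in FVB BM IMs was Gadd45g (23.0 ± 5.45), Gadd45a (17.2 ± 2.07) and Gadd45b (6.19 ± 1.78). In primary tumor TIMs it was Gadd45g (110 ± 7.82, n = 5), Gadd45b (47.0 ± 7.19) and Gadd45a (21.2 ± 1.83), so that Gadd45b moved from the lowest to the middle place. The same order held in lymph node TIMs (141, 64.6 and 30.8 CPM per kilobase) and in LN4K1 lung TIMs (175, 44.9 and 30.0). Cdkn1a was the most abundant of the 10 in each TIM group, at 249 ± 40.1 CPM per kilobase in primary tumor, 226 ± 38.9 in lymph node and 219 ± 32.3 in LN4K1 lung TIMs. Sesn1 lay between 5.14 and 7.80 CPM per kilobase in all 5 groups.

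**Figure D3:**
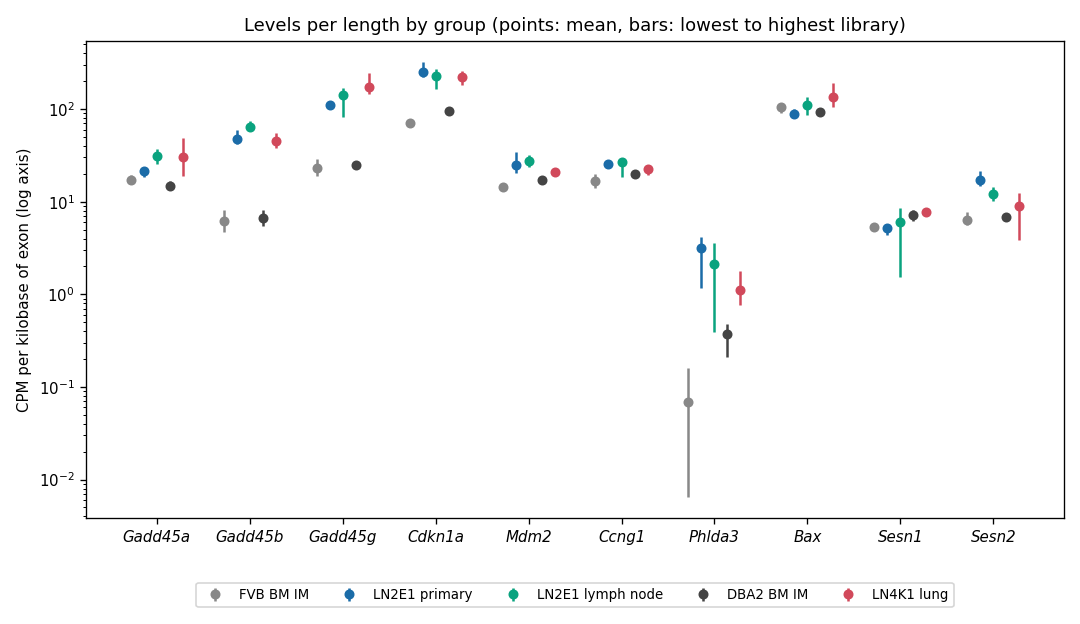
CPM per kilobase of exon (log axis) of the 10 genes in the 5 groups, with points for means and bars from the lowest to the highest library. Cdkn1a was highest of the 10 in the TIM groups at 219 to 249, Bax was highest in FVB BM IMs at 105, and Phlda3 was lowest in every group.

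The order of the groups differed from gene to gene. For Gadd45b the mean CPM ran from lymph node TIMs (103 ± 10.7) over primary tumor (74.6 ± 11.4) and LN4K1 lung TIMs (71.4 ± 11.9) to DBA2 (10.6 ± 2.07) and FVB BM IMs (9.83 ± 2.82), and neighbors in this order overlapped except between lung TIMs and DBA2 BM IMs. For Gadd45g the highest group was LN4K1 lung TIMs (205 ± 47.2) and for Cdkn1a primary tumor TIMs (884 ± 142). For both genes the ranges of neighboring TIM groups overlapped. Sesn2 was the only gene of the 10 whose highest group, primary tumor TIMs (60.0 ± 8.89), did not overlap its neighbor, lymph node TIMs (42.1 ± 5.14).

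Lymph node and primary tumor TIMs of the LN2E1 model were compared to ask whether the site of the tumor altered these levels. Gadd45a was higher in lymph node TIMs by 0.55 ± 0.12 on the log2 scale (edgeR adjusted p = 0.0123), with no overlap between the libraries, and Gadd45b by 0.47 ± 0.12 (adjusted p = 0.0235), where primary tumor replicate 3 lay above the lowest lymph node library. Sesn2 was lower, by -0.50 ± 0.13 (adjusted p = 0.0256), with no overlap. These were 2 genes higher and 1 lower of 10, where 6.15% of all genes were called higher and 5.55% lower. Without overlap of libraries, 1 of 10 was higher and 1 lower, against 5.61% and 8.84% of all genes. The Gadd45b difference was lost without any 1 of primary tumor replicates 1, 2, 4 and 5 (adjusted p from 0.0626 to 0.0792), and that of Sesn2 without primary tumor replicate 3 or 4 or lymph node replicate 2 (from 0.0517 to 0.0627). Gadd45g had 0.37 ± 0.17 (adjusted p = 0.187), and 0.50 with an adjusted p of 0.00352 without lymph node replicate 3, its lowest library. Cdkn1a (-0.13, adjusted p = 0.615), Mdm2 (0.15, 0.589) and Ccng1 (0.09, 0.721) missed the threshold. So did Phlda3 (-0.57 ± 0.54, adjusted p = 0.566), Bax (0.35 ± 0.13, 0.107) and Sesn1 (0.23 ± 0.35, 0.737). All 3 differences missed the threshold when the 5 groups were fitted together (adjusted p = 0.0571 for Gadd45a, 0.0502 for Gadd45b and 0.106 for Sesn2).

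The models were then compared by the change in LN2E1 primary tumor TIMs, each against its own baseline, minus that in LN4K1 lung TIMs. Of the 10 genes 4 had a greater change in the LN2E1 primary tumors and 1 a lower one, against 13.2% and 13.3% of all genes. One of the 4 was Phlda3, with few counts in BM IMs, and 3 of 9 were greater without it. The difference was 0.68 ± 0.19 for Cdkn1a (edgeR adjusted p = 0.0165), 0.59 ± 0.20 for Mdm2 (adjusted p = 0.036), 4.06 ± 0.91 for Phlda3 (adjusted p = 0.00507) and 1.11 ± 0.38 for Sesn2 (adjusted p = 0.042). It was -0.73 ± 0.22 for Bax (adjusted p = 0.0247). Cdkn1a held in all 22 alternative settings (adjusted p up to 0.0473), Phlda3 in 20 of 21, Bax in 17 of 22, Mdm2 in 12 of 22 and Sesn2 in 11 of 22. Without lung replicate 3 the difference was 0.92 for Sesn2 (edgeR adjusted p = 0.00958) and -0.57 for Bax (adjusted p = 0.0109). Cdkn1a, Mdm2 and Phlda3 also stayed called without it. Leaving out 1 library ended the call for Mdm2 with any of 7 libraries (0.48 without FVB BM IM replicate 1, adjusted p = 0.127), for Sesn2 with any of 10 (0.98 without that library, adjusted p = 0.106) and for Bax with FVB BM IM replicate 1 or 2 or DBA2 BM IM replicate 2 or 3 (adjusted p from 0.0531 to 0.063). The difference was 0.25 ± 0.26 for Gadd45b (adjusted p = 0.512) and -0.47 ± 0.23 for Gadd45g (adjusted p = 0.134). It was -0.66 ± 0.31 for Gadd45a (adjusted p = 0.124), 0.49 ± 0.18 for Ccng1 (adjusted p = 0.051) and -0.12 ± 0.17 for Sesn1 (adjusted p = 0.665). Ccng1 passed the threshold in 6 of 22 alternative settings, among them DESeq2's size factors (0.53, adjusted p = 0.0312). Since the marker sums of fibroblasts and lung epithelium were also higher in primary tumor than in lung TIMs, their part in these differences was not tested.

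**Figure D4:**
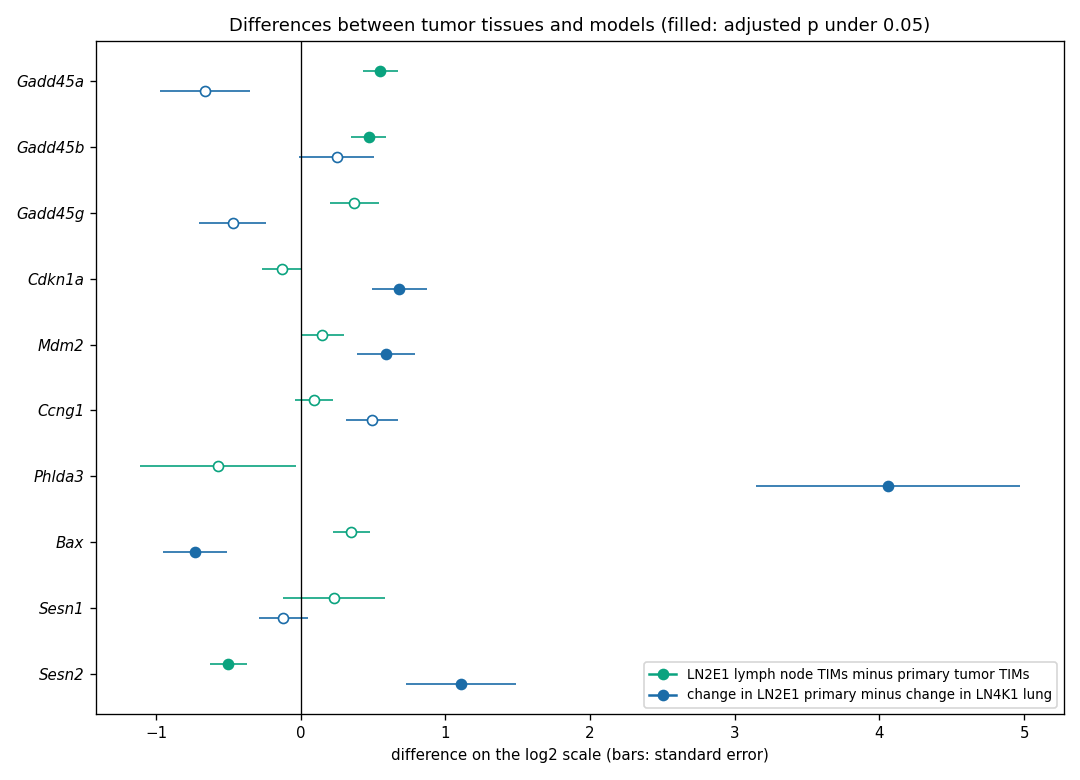
Differences on the log2 scale (x axis) for each of the 10 genes between lymph node and primary tumor TIMs and between the changes in the 2 models, with standard errors as bars and filled points where the adjusted p was under 0.05. Gadd45a and Gadd45b were higher in lymph node TIMs (0.55 and 0.47), Sesn2 was lower (-0.50), and Cdkn1a, Mdm2, Phlda3 and Sesn2 changed more in the LN2E1 primary tumors.

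Between the strains at baseline, Cdkn1a was higher in DBA2 than in FVB BM IMs (log2 fold change 0.45 ± 0.10, edgeR adjusted p = 0.0168). It was the only one of the 10 genes called, where 11.5% of all genes were called higher and 9.57% lower. The call was lost without FVB replicate 2 or DBA2 replicate 1 or 3 (adjusted p from 0.0585 to 0.08). Without FVB replicate 3, 5 of the 10 genes were called, with Ccng1 (0.43, adjusted p = 0.0179), Mdm2 (0.35, 0.0202) and Sesn1 (0.49, 0.0395) higher and Bax lower (-0.22, 0.047) besides Cdkn1a. Calls over all genes grew too, to 4828 of 13276 without that library (2576 higher and 2252 lower) from 2719 of 12905 with it. Phlda3 had more counts in each DBA2 library than in any FVB library, with a log2 fold change of 2.47 ± 1.09 (adjusted p = 0.141), which missed the threshold. With all 6 libraries, Mdm2 (0.29, adjusted p = 0.102), Ccng1 (0.27, 0.224), Sesn1 (0.43, 0.077) and Bax (-0.15, 0.32) missed it too. So did Gadd45a (-0.21 ± 0.15, adjusted p = 0.337), Gadd45b (0.13 ± 0.25, 0.736), Gadd45g (0.14 ± 0.18, 0.61) and Sesn2 (0.12 ± 0.17, 0.648).

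Trp53, which encodes p53, was at 106 ± 13.4 CPM in FVB BM IMs (n = 3), 52.9 ± 5.29 in primary tumor TIMs and 43.7 ± 7.44 in lymph node TIMs (n = 5 each). It fell by 1.02 on the log2 scale in primary tumor TIMs (SE 0.11, adjusted p = 3.61e-05) and by 1.28 in lymph node TIMs (SE 0.17, adjusted p = 0.000276). It was at 86.6 ± 4.52 CPM in DBA2 BM IMs and 56.8 ± 8.99 in LN4K1 lung TIMs, where it fell by 0.68 (SE 0.15, adjusted p = 0.00954). Mdm4, which encodes a partner of Mdm2 that blocks p53, rose by 0.44 in primary tumor TIMs (adjusted p = 0.0314) and by 0.88 in lymph node TIMs (adjusted p = 0.00466), and the lung value was 0.09 (adjusted p = 0.724). Of 12 p53 regulators tested in primary tumor TIMs 4 rose and 7 fell (33.3% and 28.6% of all genes). Cdkn2a was among the 4 (mean 0.794 CPM, 0 in FVB BM IMs). It passed the filter on low counts through the TIM libraries and was not tested in the other TIM comparisons. In lymph node TIMs 1 of 11 rose and 2 fell (20.2% and 17.2% of all genes), and in LN4K1 lung TIMs 1 of 11 rose and 4 fell (13.9% and 11.0%). The counts of the other lists that follow stand against the same shares of all genes. Ppm1d, the phosphatase that switches off p53 signaling and is itself a p53 target, fell by 1.30 in primary tumor and by 1.10 in lymph node TIMs (adjusted p = 0.00456 and 0.00414). Its lung value was 1.07 (adjusted p = 0.151), its value between strains was -2.41 (adjusted p = 0.00702) and the difference between models was -2.35 (adjusted p = 0.0121). Hipk2, a kinase that activates p53, rose by 1.24 in primary tumor and by 0.60 in LN4K1 lung TIMs, with 1.31 in lymph node TIMs (adjusted p = 0.06). Trp53bp1, a DNA repair adaptor, rose by 0.56 in primary tumor TIMs and fell by 0.64 in lung TIMs, with 0.55 in lymph node TIMs (adjusted p = 0.126).

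Of 25 other p53 targets listed, 24 were in the table. In primary tumor TIMs 11 of 24 tested rose and 7 fell, against 33.3% and 28.6% of all genes (median log2 fold change 0.71, against 0.08 over all genes). Eda2r was among the 11 (mean 0.528 CPM, 0 in FVB BM IMs, with overlapping ranges) and passed the filter on low counts through the TIM libraries. In lymph node TIMs 7 of 22 rose and 2 fell, against 20.2% and 17.2% (median 0.33 against -0.04), and in LN4K1 lung TIMs 5 of 23 rose and 4 fell, against 13.9% and 11.0% (0.02 against 0.03). The polo-like kinase Plk3, a stress response gene, rose by 3.25, 2.64 and 1.69 in the 3 comparisons (adjusted p = 0.00128, 0.00017 and 0.0323). Its relative Plk2 rose by 1.97 and 2.47 in primary tumor and lymph node TIMs, and its lung value was 0.66 (adjusted p = 0.0621). Pmaip1, which encodes the death-promoting protein Noxa, rose by 1.92, 2.25 and 1.40 (adjusted p = 1.58e-05, 3.85e-05 and 0.0208). Ccng2, the relative of Ccng1, fell by 0.85 in primary tumor TIMs and by 1.38 in lung TIMs, and its value in lymph node TIMs was 0.02 (adjusted p = 0.97). 9630033F20Rik, an older symbol of Tigar, a regulator of glycolysis, fell by 0.64 in primary tumor TIMs (adjusted p = 0.0095), with -0.05 and 0.02 in lymph node and lung TIMs (adjusted p = 0.909 and 0.963). Aen, a nuclease raised by p53, had log2 fold changes of -0.39, -0.72 and -0.03 in the 3 comparisons (adjusted p = 0.0298, 0.0228 and 0.955). The DNA damage recognition gene Xpc had -0.54, -0.76 and -0.53 (adjusted p = 0.0104, 0.0746 and 0.0104).

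Among 11 binding partners of GADD45 and kinases of the p38 and JNK cascades, 4 rose and 2 fell in primary tumor TIMs, 3 rose and 1 fell in lymph node TIMs, and 2 rose and 1 fell in LN4K1 lung TIMs, against 33.3% and 28.6%, 20.2% and 17.2%, and 13.9% and 11.0% of all genes. Map2k4, a kinase upstream of JNK and p38, rose by 1.53, 1.61 and 0.47 (adjusted p = 5.44e-06, 1.78e-05 and 0.0118). Map2k7, a kinase of the JNK cascade, rose by 1.18 in primary tumor TIMs, with 0.63 and -0.29 in lymph node and lung TIMs (adjusted p = 0.218 and 0.568). Mapk9, which encodes JNK2, rose by 0.59, 0.92 and 0.40 in the 3 comparisons. Pcna, the sliding clamp of DNA replication that GADD45 and p21 proteins bind, fell, with log2 fold changes of -1.95, -1.55 and -1.12 (adjusted p = 6.86e-07, 7.47e-05 and 0.00093). Among the other 5 CDK inhibitors, Cdkn2c, which encodes p18, fell in all 3 (-2.78, -2.73 and -2.64), opposite in direction to Cdkn1a. Cdkn2d (p19) and Cdkn1b (p27) rose by 0.99 and 0.44 in lung TIMs. In primary tumor and lymph node TIMs Cdkn2d had 0.17 and -0.31 (adjusted p = 0.147 and 0.0682) and Cdkn1b -0.25 and -0.57 (adjusted p = 0.26 and 0.0612). In all, 1 of these 5 rose and 1 fell in primary tumor TIMs, the same counts held in lymph node TIMs, and 3 rose and 1 fell in lung TIMs. Cdkn2b was the gene that rose in primary tumor TIMs (mean 4.56 CPM against 0.0864 in FVB BM IMs). It was also among the 3 in lung TIMs (0.408 CPM against 0 in DBA2 BM IMs, with overlapping ranges). In both it passed the filter on low counts through the TIM libraries, where it is high.

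All 23 genes of a DNA replication and mitosis list fell in all 3 comparisons, with medians of -3.93, -5.23 and -4.76 on the log2 scale. Their summed level was 3780 to 4390 CPM in FVB BM IMs, 3860 to 4110 in DBA2 BM IMs and 201 to 445 in TIMs, and no TIM library reached the BM IM range. Birc5, which encodes survivin, had log2 fold changes of -5.22, -6.34 and -5.50. Cdk1, the mitotic kinase that GADD45 proteins bind, had -4.01, -6.48 and -5.07. The cyclin gene Ccnb2 had -5.38, -6.07 and -5.02, and Top2a, which untangles DNA, had -4.28, -6.07 and -6.31. This list moved with the same groups as Gadd45b, Gadd45g and Cdkn1a, and the part of cycling cells in those results was not tested.

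Sesn2 also belongs to the integrated stress response, in which ATF4 raises genes of amino acid supply. Of 12 other genes of this response, 8 rose and 2 fell in primary tumor TIMs, 5 rose in lymph node TIMs and 0 fell (edgeR, 0 also at an unadjusted p under 0.05 and 0 in DESeq2), and 5 of 11 tested rose and 1 fell in LN4K1 lung TIMs. Over all genes the shares were 33.3% and 28.6%, 20.2% and 17.2%, and 13.9% and 11.0%. Vldlr was among those that rose in primary tumor and lymph node TIMs (means 3.43 and 4.72 CPM, against 0.0298 in FVB BM IMs). It passed the filter on low counts through the TIM libraries. Slc7a11, the cystine importer, rose by 3.22 and 2.95 in primary tumor and lymph node TIMs and by 0.82 in lung TIMs. Ppp1r15a (also called Gadd34, a phosphatase subunit with no membership in the GADD45 family) rose by 1.44, 1.50 and 1.07. Asns, which makes asparagine, rose by 1.32, 1.36 and 1.25, and the stress protein gene Nupr1 by 0.52, 0.73 and 1.33. Atf4 fell by 0.34 and Ddit3, which encodes CHOP, fell by 0.75 in primary tumor TIMs, and Ddit3 fell by 1.16 in lung TIMs. Atf4 had -0.27 and -0.32 in lymph node and lung TIMs (adjusted p = 0.214 and 0.174), and Ddit3 -0.01 in lymph node TIMs (adjusted p = 0.988). Of 10 sestrin partners in mTORC1 control 2 rose and 3 fell in primary tumor TIMs, and 1 rose and 2 fell in lymph node TIMs, against 33.3% and 28.6% and against 20.2% and 17.2% of all genes. In lung TIMs edgeR called 0 of the 10 (2 at an unadjusted p under 0.05), and DESeq2 called 1. Gatsl2, also called Castor2, rose by 2.51 and 2.33 in primary tumor and lymph node TIMs, with a lung value of 0.79 (adjusted p = 0.0811). The GATOR subunits Nprl2 (-0.66 and -0.73) and Sec13 (-0.49 and -0.48) fell in primary tumor and lymph node TIMs, with lung values of -0.01 and 0.18 (adjusted p = 0.978 and 0.271).

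Because Gadd45b answers to NF-kB, 10 genes that NF-kB raises were counted, called NF-kB feedback genes here. They include inhibitors of NF-kB but also genes of NF-kB subunits (Relb, Nfkb1 and Nfkb2), so not all of them limit its activity. All 10 rose in primary tumor and in lymph node TIMs and 8 of 10 rose in LN4K1 lung TIMs, with medians of 1.83, 1.62 and 0.92 on the log2 scale, where 33.3%, 20.2% and 13.9% of all genes rose. Tnfaip3, which encodes A20, rose by 3.11 and 2.89 in primary tumor and lymph node TIMs. Its lung value was 0.36 (adjusted p = 0.402), and the difference between models was 2.77 (adjusted p = 0.00028). Nfkbiz rose by 2.97, 1.58 and 1.06 in the 3 comparisons and Nfkbie by 2.67, 2.80 and 1.25. Bcl3 rose by 1.84, 1.86 and 2.55 and Nfkbia by 1.28, 1.41 and 1.52. Of 15 immediate early genes, which cells raise within minutes of handling as well as of signaling, 11 rose and 1 fell in primary tumor TIMs, 7 rose and 2 fell in lymph node TIMs and 8 rose in lung TIMs, against the same shares of all genes that rose and 28.6% and 17.2% that fell. Nr4a1, a nuclear receptor, rose by 3.64, 3.27 and 2.24 in the 3 comparisons. Ier3 rose by 4.05, 2.88 and 5.22 and Egr2 by 3.68, 3.15 and 4.16, whereas Fos fell by 1.66 in lymph node TIMs and Ier2 had -0.23 in primary tumor and -0.53 in lymph node TIMs (adjusted p = 0.021 and 0.00991). Fos had -0.33 in primary tumor and 0.12 in lung TIMs (adjusted p = 0.0839 and 0.805), and Ier2 0.38 in lung TIMs (adjusted p = 0.097). The summed level of the 15 was 12700 to 17800 CPM in lymph node TIMs and 11400 to 17400 CPM in FVB BM IMs, ranges that overlapped. It was 23000 to 27900 CPM in primary tumor TIMs, 29700 to 45400 in lung TIMs and 17900 to 33500 in DBA2 BM IMs. The part of handling in the levels of the GADD45 genes was not tested.

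**Figure D5:**
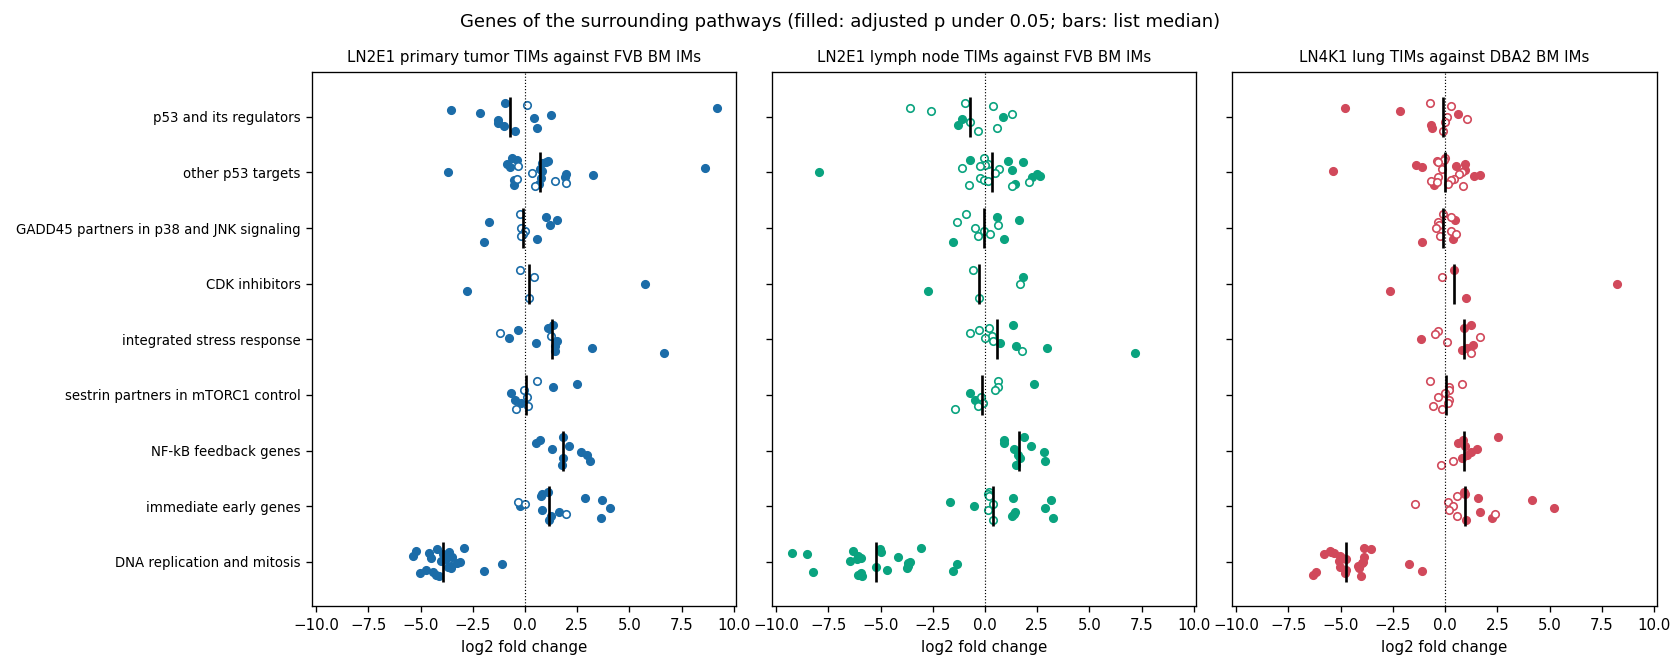
Log2 fold change (x axis) of each tested gene of 9 lists in the 3 comparisons of TIMs with BM IMs, with filled points where the adjusted p was under 0.05 and a bar at the list median. The 23 DNA replication and mitosis genes all lay below 0 and the 10 NF-kB feedback genes lay above 0 in the LN2E1 model, while p53 regulators and other p53 targets lay on both sides. Values beyond 5 on either side include genes with few or 0 counts in a group, whose fitted size depends on the prior count.

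Across the 21 libraries, the genes whose log2 CPM was most like that of each leading gene were found among 8016 genes with a mean above 3 on that scale. For Gadd45b they were Fbxl5 (Pearson r = 0.981), Srgn (0.979) and Btg1 (0.978). For Gadd45g they were Bst1 (0.981), Dpep2 (0.978) and Ppt1 (0.966), and for Cdkn1a Serpinb8 (0.979), Saa3 (0.975) and Ccl7 (0.975). For Gadd45a they were Derl2 (0.933), Acer3 (0.913) and Gch1 (0.912). The points fall into BM IMs and TIMs and share libraries and normalization, so these values are descriptions of a pattern over 21 points that lie in separate groups.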

How the data were processed

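RNA-seq was measured in 21 libraries of sorted mouse IMs, and groups were taken from the sample labels. The authors trimmed reads with BBDuk, aligned them to mm10 with BBMap and counted them per gene with featureCounts 1.5.2 (SAMtools 1.8 is also named in the submitters' processing notes). The deposited values are raw counts, and the gene annotation used for counting was not given in the sources used here. Libraries were not stranded.

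Counts were analyzed in R 4.3.3 with edgeR 4.0.16 and, as an alternative, DESeq2 1.42.0. Fits used the whole table and only the libraries compared, with TMM factors, a filter on low counts (minimum count 10, minimum total 15), the robust quasi-likelihood test and Benjamini-Hochberg adjustment over all genes tested, with calls at an adjusted p under 0.05. CPM used TMM factors over all 21 libraries, and log2 CPM a prior count of 2. Lengths were unions of GENCODE exons (GRCm38). The test was checked on simulated data. The study's methods describe the replicates as technical, and nothing in the labels names separate animals, so p-values measure only the spread between these libraries. All replicate pairs differed beyond sampling noise. Samples with the same replicate number did not deviate together (correlations from -0.1 to 0.057), so numbers were not used to pair them.

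The 10 genes and the pathway and marker lists were chosen with earlier results of these data known. All 10 genes are named in each comparison. Of each pathway list up to 2 genes in each direction with the largest change among called genes with a mean log2 CPM above 3 are named in each TIM comparison, plus Trp53 and Mdm4, with their values in the other TIM comparisons. Alternatives were other size factors, other filters, all 5 groups in 1 fit, DESeq2, a replicate block and leaving out each library.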

Additional observations from a re-analysis of the deposited data

Results flagged for a closer look

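In groups of 5 libraries, 5 of 30 combinations of gene and TIM group had a library far from the rest by Dixon's test, which chance gives in about 1 in 20. The combinations share libraries and are not independent, so these rates cannot show an excess. Primary tumor TIM replicate 3 was the highest for Gadd45b (94.3 CPM), Cdkn1a (1136 CPM) and Mdm2 (173 CPM). Lymph node TIM replicate 3 was the lowest for Gadd45g (95.6 CPM), and lymph node TIM replicate 1 was the lowest for Ccng1 (65.0 CPM). Without primary tumor replicate 3 the log2 fold changes against FVB BM IMs were 2.80 for Gadd45b, 1.68 for Cdkn1a and 0.64 for Mdm2, and all 3 stayed called.

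The change from BM IMs to TIMs differed between LN2E1 primary tumors and LN4K1 lung metastases, in edgeR's test of the difference, by 0.68 for Cdkn1a, 0.59 for Mdm2, 4.06 for Phlda3, -0.73 for Bax and 1.11 for Sesn2 on the log2 scale. Lymph node TIMs differed from primary tumor TIMs by 0.55 for Gadd45a, 0.47 for Gadd45b and -0.50 for Sesn2.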

How the results depend on the processing

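Over 60 results for single genes and 966 alternatives, 871 kept direction and side of the threshold, 65 lost it, 25 gained it and 5 changed sign. Gadd45b, Gadd45g and Cdkn1a were called higher in all 3 TIM comparisons under every alternative run. The 5 sign changes were in values near 0 that were not called: Sesn1 in lymph node TIMs with the replicate block (-0.22) and without lymph node TIM replicate 3 (-0.01, range without 1 library -0.01 to 0.40), Sesn1 in LN4K1 lung TIMs without DBA2 BM IM replicate 3 (-0.05, range -0.05 to 0.15), and Gadd45b between strains without FVB BM IM replicate 3 (-0.02) or DBA2 replicate 3 (-0.03, range -0.03 to 0.37). With the replicate block, which leaves few degrees of freedom, all genes called fell from 9025 to 5997 in primary tumor TIMs, from 3389 to 1297 in lung TIMs, from 1578 to 533 between lymph node and primary tumor TIMs and from 4022 to 874 for the difference between models. The genes of the 10 called fell from 3 to 0 between lymph node and primary tumor TIMs (4 at an unadjusted p under 0.05 in edgeR) and from 5 to 1 between models. The numbers share nothing that the labels state, although lymph node replicates 1 to 3 each correlated best with the same FVB number. With all 5 groups in 1 fit, 0 of the 10 were called between lymph node and primary tumor TIMs (4 unadjusted, edgeR) and 0 between strains (2 unadjusted), with 1595 of all genes called there against 2719. DESeq2, with and without shrinkage, called 3092 genes between lymph node and primary tumor TIMs. The causes were not tested.

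Leaving out 1 library at a time, the genes of the 10 called ran from 7 to 8 in primary tumor TIMs, 7 to 8 in lymph node TIMs, 3 to 6 in lung TIMs (6 without lung replicate 3), 1 to 4 between lymph node and primary tumor TIMs, 0 to 5 between strains (0 without FVB replicate 2) and 2 to 6 between models. All genes called ran from 7716 to 9066, 3369 to 6040, 2134 to 5036, 889 to 2256, 1115 to 4828 and 2734 to 4708 in the same order. The genes that passed the study's rule numbered 1879, 758 and 405 in the 3 TIM comparisons in edgeR and 4027, 2419 and 1602 in DESeq2. At these depths the counts limit Phlda3 alone among the 10.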

Other observations

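Between the healthy strains, 8 of 22 other p53 targets tested were higher in DBA2 than in FVB BM IMs and 2 were lower, where 11.5% of all genes were called higher and 9.57% lower. Plk2 was at 49.0 ± 18.0 CPM in DBA2 and 24.6 ± 8.02 in FVB BM IMs (SD, n = 3 each), higher by 1.02 on the log2 scale (edgeR adjusted p = 0.0421). Ccng2 was higher by 0.43 (adjusted p = 0.0196) and Pmaip1 by 0.76 (adjusted p = 0.0447), while Plk3 was lower by -1.07 (adjusted p = 0.047). Of 15 immediate early genes 6 were higher in DBA2 BM IMs and 0 lower (edgeR, 1 lower at an unadjusted p under 0.05 and 1 in DESeq2). In the LN2E1 model, 8 of 15 immediate early genes were lower in lymph node than in primary tumor TIMs and 0 higher (edgeR, 0 higher also at an unadjusted p under 0.05 and 0 in DESeq2), where 5.55% of all genes were called lower and 6.15% higher.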
